A study of Mus musculus with 9 samples.

Results

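The enzymes of glycine, methionine and one-carbon metabolism were followed in the livers of ob/ob mice given tauroursodeoxycholic acid (TUDCA), a bile acid joined to taurine. The list held 33 genes, and 28 of them had a probe set that the array annotation pairs with that symbol alone. Of the other 5, Ahcy was covered only by probe sets shared with a second gene, and Sds, Sdsl, Tdh and Mat2a were not listed by the annotation and were not analysed here. Where a symbol had several such probe sets their mean was taken, so the 28 genes stand among 19938 genes measured in the same way.

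Liver RNA of male mice was hybridized to 9 arrays, 3 for each group. OB-TUDCA mice were ob/ob mice (strain B6.V-Lepob/J) that received 500 mg/kg of TUDCA by gavage 2 times a day for 3 weeks. OB-control mice were of the same genotype and strain and received tap water on the same schedule. N-control mice were wild-type C57BL/6J littermates, also given tap water. The mice were 6 weeks old when purchased, ate normal chow, and were fasted for 8 h before the liver was removed. The ob/ob mutation removes the hormone leptin in the whole animal, so OB-control and N-control mice differ in more than the liver. What causes a difference between their arrays was not tested. The methods give 6 mice for each group, and the labels call the 3 arrays of a group biological replicates. That each array holds a single mouse is an assumption. The p-values below measure the spread between these arrays.

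One-carbon metabolism carries single carbon units on folate and on methionine. The mitochondrial glycine cleavage system and serine hydroxymethyltransferase load folate with carbon from glycine and serine. Choline is oxidized in steps to betaine, dimethylglycine, sarcosine and glycine, and betaine hands a methyl group to homocysteine to remake methionine. Methionine is turned into S-adenosylmethionine, the methyl donor of the cell, and the homocysteine that remains is either remethylated or passed through transsulfuration to cysteine. The liver is the main site of choline oxidation, of S-adenosylmethionine use and of glyoxylate disposal, and many of these enzymes are abundant in hepatocytes.

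Promoter sequence is shown for the 3 genes whose difference between groups passed the threshold in the 2 comparisons with OB-control livers, and for the short stretch between 2 neighbouring genes of choline oxidation that are read in opposite directions. The sequences come from the RefSeq annotation of mouse assembly GRCm38.p6, are given 5′ to 3′ on the plus strand, and end at the base before the annotated start for the first 3. Capitals mark the letters CCAAT, which begin 210 bases before the Amt start and were found on neither strand of the other 3 sequences.
Amt, chr9:108296655-108296904: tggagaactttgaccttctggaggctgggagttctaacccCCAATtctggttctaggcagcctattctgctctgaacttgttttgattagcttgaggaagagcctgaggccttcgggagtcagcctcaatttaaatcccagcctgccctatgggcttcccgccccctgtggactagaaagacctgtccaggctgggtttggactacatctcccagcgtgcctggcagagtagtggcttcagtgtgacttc
Agxt2, chr15:10358283-10358532: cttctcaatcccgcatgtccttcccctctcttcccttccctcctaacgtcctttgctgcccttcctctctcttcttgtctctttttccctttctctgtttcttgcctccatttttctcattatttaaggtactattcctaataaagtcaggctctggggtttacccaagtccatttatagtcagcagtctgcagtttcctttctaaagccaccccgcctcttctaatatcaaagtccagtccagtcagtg
Mthfd1l, chr10:3972825-3973074: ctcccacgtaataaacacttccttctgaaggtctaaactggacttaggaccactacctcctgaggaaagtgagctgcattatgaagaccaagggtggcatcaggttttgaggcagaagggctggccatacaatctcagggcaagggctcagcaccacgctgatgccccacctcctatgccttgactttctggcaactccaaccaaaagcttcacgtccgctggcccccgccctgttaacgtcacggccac
Between the starts of Bhmt2 (minus strand) and Dmgdh (plus strand), chr13:93674303-93674435: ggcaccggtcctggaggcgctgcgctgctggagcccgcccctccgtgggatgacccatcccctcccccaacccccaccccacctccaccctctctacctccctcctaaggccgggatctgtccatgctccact

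RefSeq promoters were matched for 27 of the 33 listed genes and gave 31 windows of 250 bases before a start. CCAAT stood on either strand in 16 of these windows (51.6%), and in 33.8% of the 32851 windows of all genes. TGATGNAA, the core of the element through which C/EBP and ATF factors answer a shortage of amino acids, was in 0 of the 31 windows and in 3.45% of all windows. These counts describe letters in a window and no bound site. Bhmt, Bhmt2 and Dmgdh follow each other directly on chromosome 13.

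Signals are log2 values from RMA, a method that corrects the background, makes the distributions of the arrays alike and joins the probes of a probe set. Group differences come from a two-sided limma test that fits all 9 arrays together, with p-values adjusted by the Benjamini-Hochberg method over all 19938 genes, with a threshold of 0.05. With 3 arrays against 3, an exact permutation test of a single gene cannot give a p below 0.1. The medians of the arrays lay between 4.50 and 4.58. The liver label was borne out by hepatocyte markers, whose mean over 6 genes was 12.50 to 12.58 in OB-TUDCA, 12.39 to 12.48 in OB-control and 12.51 to 12.61 in N-control arrays. N-control replicate 2 stood apart, with the highest signal of all arrays for each of 16 pancreatic acinar genes and an acinar mean of 10.66, against 3.85 to 4.32 on the other 8 arrays.

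Most of the pathway was at a lower mean signal after TUDCA treatment. The OB-TUDCA mean was below the OB-control mean for 23 of 28 genes, while 46.3% of all genes had a lower mean. The median difference of the 28 genes was -0.37 on the log2 scale, against 0.012 over all genes. Only Amt and Agxt2 fell past the threshold and no gene rose, which is 2 of 28 genes, against 0.301% of all genes past it in either direction, 0.186% as lower and 0.115% as higher. At an unadjusted p under 0.05, 16 genes were lower and 1 was higher, against 5.72% and 6.26% of all genes. The 3 OB-TUDCA arrays lay wholly below the 3 OB-control arrays for 11 genes and wholly above them for 0, against 6.53% and 7.26% of all genes. A difference of 1.5-fold or more downward was seen for 8 genes, against 1.3% of all genes. The 28 genes were chosen with earlier results of these data known, so the shares here and below are a description and no test. All genes include those of low signal, since no filter on signal was applied. In liver tissue, fewer cells of a type and less RNA in each cell cannot be told apart.

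The group with the lowest mean was OB-TUDCA for 20 of the 28 genes, OB-control for 2 and N-control for 6, while OB-TUDCA had the lowest mean for 28.1% of all genes. OB-control had the highest mean for 16 genes, N-control for 7 and OB-TUDCA for 5. By array, the lowest signal of a gene fell on OB-TUDCA replicate 3 for 9 genes, on replicate 2 for 6 and on replicate 1 for 3. OB-control replicate 2 held the highest signal for 10 genes, the most of any array. The counts by array and those of the highest mean were not made over all genes. Whether they are particular to the 28 genes therefore cannot be said.

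**Figure D1:**
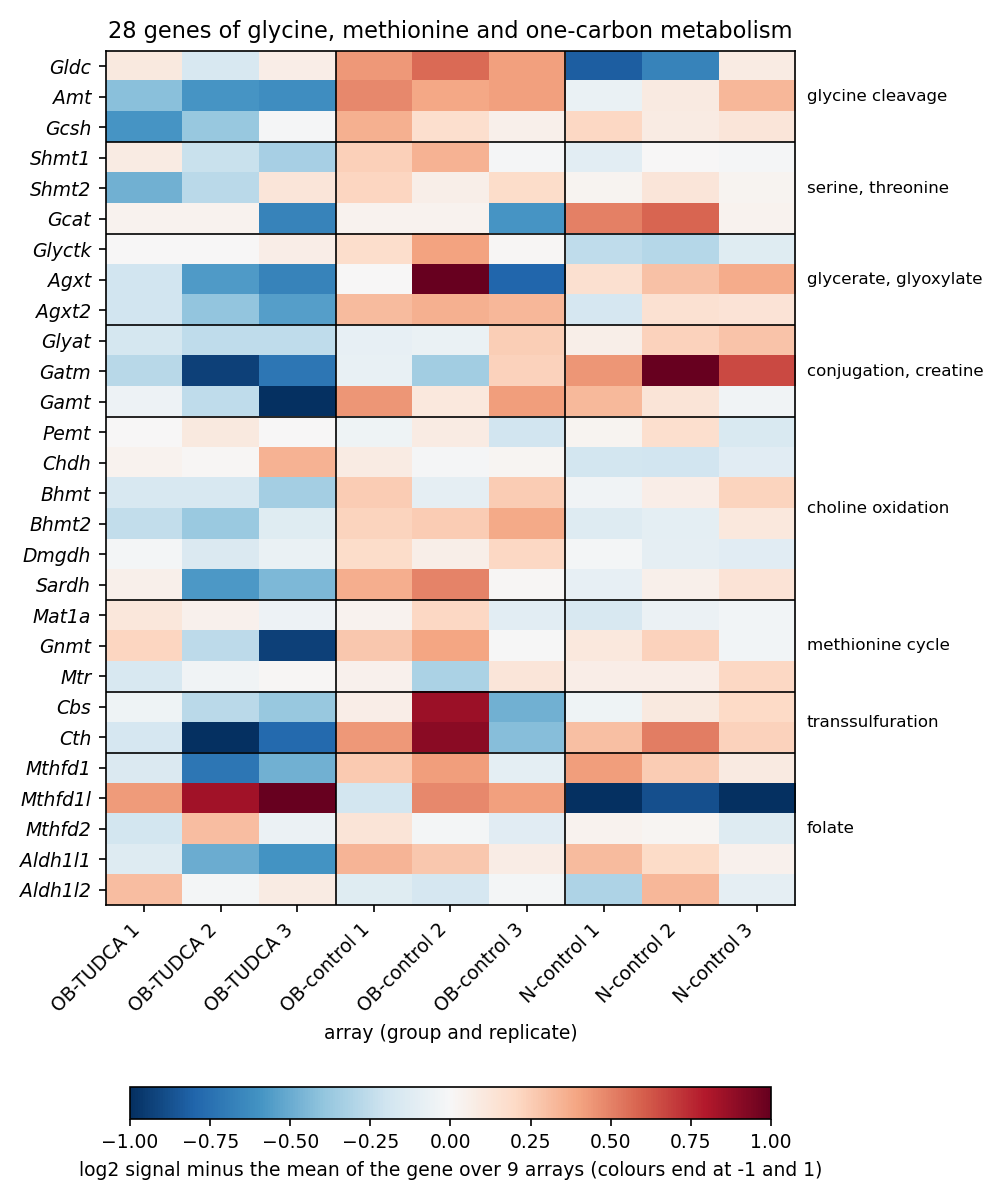
Signal of the 28 genes on each of the 9 arrays, as the log2 signal minus the mean of the gene over all arrays, with colours ending at -1 and 1. Columns are arrays by group and replicate, and the genes are grouped by role. OB-TUDCA replicates 2 and 3 are blue for most genes, and Mthfd1l runs the other way with its lowest signals in N-control.

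Markers of the cell types that a liver sample can hold did not pass the threshold in OB-TUDCA against OB-control livers in any of the 11 lists examined. The 7 sinusoidal endothelial genes differed there by -0.93 to 1.61. In OB-TUDCA against N-control 1 of them was higher and 2 lower past the threshold, with 1 of 7 pericentral genes lower and 1 of 6 hepatocyte genes higher. Of all genes 1.35% were higher and 1.89% lower. In OB-control against N-control 1 pericentral gene was lower, against 0.492% of all genes. The periportal hepatocyte list, measured with 5 of 7 genes, had array means of 10.72 to 11.15 in OB-TUDCA, 10.89 to 11.39 in OB-control and 11.15 to 11.19 in N-control arrays. The pericentral list of 7 genes had 9.30 to 9.46 in OB-TUDCA, 9.42 to 9.80 in OB-control and 9.62 to 9.92 in N-control arrays. Kupffer cell and macrophage markers, 8 genes, had 6.87 to 7.46 in OB-TUDCA, 6.76 to 7.12 in OB-control and 6.82 to 7.09 in N-control arrays. In 4 lists the OB-TUDCA and OB-control array means did not overlap. The mean over the hepatocyte markers was higher in OB-TUDCA, as given above. By gene, 2 of the 6 had a higher and 4 a lower mean, with a median difference of -0.013 and a range of -0.090 to 0.43. Cholangiocyte markers, 5 genes, had 4.57 to 4.76 in OB-TUDCA, 4.34 to 4.54 in OB-control and 4.37 to 4.78 in N-control arrays. The 16 acinar genes had 4.15 to 4.32 in OB-TUDCA and 3.99 to 4.06 in OB-control arrays. Lymphocyte markers, 7 genes, were lower in OB-TUDCA, with 3.968 to 4.015, against 4.021 to 4.100 in OB-control and 4.029 to 4.152 in N-control arrays. The median difference of the periportal genes between OB-TUDCA and OB-control was -0.25. The part of these lists in the results was not tested.

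For Amt, Gldc and Gcsh of the glycine cleavage system, every OB-TUDCA array lay below every OB-control array, which held for 6.53% of all genes. For Dld, the L protein of the system, which also serves other enzyme complexes and was named after its values were seen, the arrays of these groups overlapped, and the difference was -0.23 (SE 0.12, adjusted p = 0.481 in limma). Amt, the aminomethyltransferase (T protein) that moves the carbon of glycine onto folate, was below both other groups. Its signal was 7.74, 7.57 and 7.54 in OB-TUDCA livers, 8.64, 8.55 and 8.57 in OB-control livers and 8.09, 8.25 and 8.49 in N-control livers. The OB-TUDCA arrays lay below all 6 others. Against OB-control the difference was -0.97 (SE 0.11, adjusted p = 0.0192 in limma), 1.96-fold lower. Against N-control it was -0.66 (SE 0.11, adjusted p = 0.0140 in limma), 1.58-fold lower. Both calls missed the threshold when single arrays were left out. Against OB-control the adjusted p was 0.104 without OB-TUDCA replicate 2, 0.0779 without OB-TUDCA replicate 3, 0.125 without OB-control replicate 1 and 0.0545 without N-control replicate 2. In each of these settings 0 of all genes passed against OB-control. Against N-control the adjusted p of Amt was 0.0632 without OB-TUDCA replicate 2, 0.0512 without OB-TUDCA replicate 3 and 0.0510 without N-control replicate 2. Other genes still passed there, such as 68 higher and 125 lower without OB-TUDCA replicate 2.

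Gldc, the glycine decarboxylase (P protein) that opens the reaction, followed another order. Its signal was 9.74, 9.48 and 9.72 in OB-TUDCA livers, 10.08, 10.21 and 10.06 in OB-control livers and 8.82, 8.98 and 9.73 in N-control livers. OB-control arrays were above all others, and N-control replicate 3 lay at the level of the OB-TUDCA arrays, away from the other 2 N-control arrays. The difference of OB-control from N-control was 0.94 (SE 0.20, adjusted p = 0.0800 in limma). It was 1.21 (adjusted p = 0.00484) without N-control replicate 3, where 80 of all genes passed as higher and 71 as lower. That array was picked out by its Gldc signal, so this smaller p follows from the choice. Gldc did not pass in this comparison with any other single array left out. OB-TUDCA differed from OB-control by -0.47 (SE 0.20, adjusted p = 0.399). Gcsh, the lipoyl carrier (H protein), averaged 6.67 ± 0.29 in OB-TUDCA, 7.18 ± 0.16 in OB-control and 7.13 ± 0.06 in N-control livers (SD, n = 3 each). Its difference between OB-TUDCA and OB-control was -0.52 (SE 0.14, adjusted p = 0.165).

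**Figure D2:**
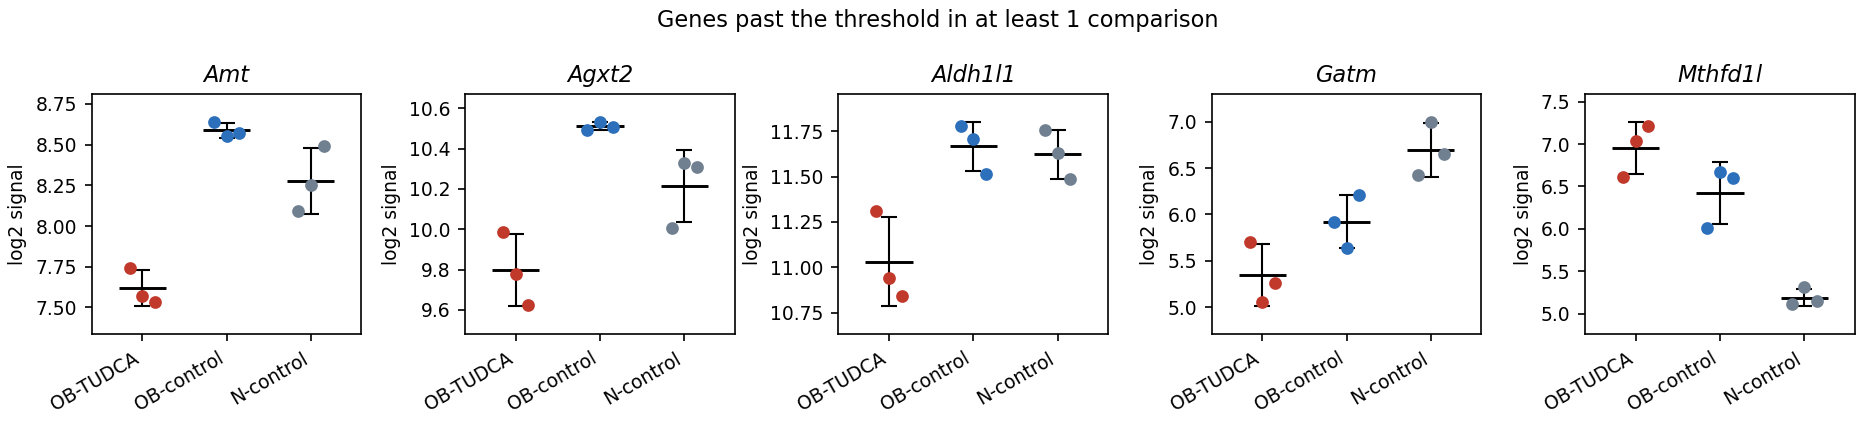
Log2 signal (y axis) of the 5 genes past the threshold in at least 1 comparison, on each array (points), with the group mean (bar) and SD (whiskers), n = 3 a group. Amt and Agxt2 are lowest in OB-TUDCA and highest in OB-control, Mthfd1l is highest in OB-TUDCA and lowest in N-control, and Gatm and Aldh1l1 are lowest in OB-TUDCA.

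Serine and threonine use showed smaller differences, and 0 of its 3 measured genes passed the threshold with limma in any comparison. Between OB-TUDCA and OB-control 2 of the 3 were lower at an unadjusted p under 0.05, against 5.72% of all genes. Shmt2, the mitochondrial serine hydroxymethyltransferase, had 8.23, 8.44 and 8.83 in OB-TUDCA livers, 8.92, 8.77 and 8.89 in OB-control livers and 8.74, 8.84 and 8.74 in N-control livers. OB-TUDCA replicate 3 lay within the range of the controls and the other 2 OB-TUDCA arrays below it. The difference between OB-TUDCA and OB-control was -0.36 (SE 0.14, adjusted p = 0.320), and it was -0.23 without OB-TUDCA replicate 1 and -0.53 without OB-TUDCA replicate 3. Shmt1, the cytosolic enzyme, averaged 9.32 ± 0.22 in OB-TUDCA, 9.67 ± 0.18 in OB-control and 9.44 ± 0.06 in N-control livers.

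Gcat, the ligase that yields glycine in the breakdown of threonine, had 6.95, 6.95 and 6.25 in OB-TUDCA livers, 6.95, 6.95 and 6.33 in OB-control livers and 7.42, 7.49 and 6.95 in N-control livers. The same value stood on 5 of the 9 arrays, and only 5 distinct values were found. Replicate 3 was the lowest array in each group. OB-control differed from N-control by -0.54 (SE 0.24, adjusted p = 0.409), or by -0.34 without OB-control replicate 3, and OB-TUDCA from OB-control by -0.026 (SE 0.24), with a 95% interval of -0.57 to 0.52.

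Among the enzymes of glycerate and glyoxylate, Agxt2 was the second gene that fell in OB-TUDCA against OB-control livers. Agxt2 is a mitochondrial aminotransferase that passes amino groups to glyoxylate and also acts on beta-aminoisobutyrate and dimethylarginine. Its signal was 9.99, 9.78 and 9.63 in OB-TUDCA livers, 10.49, 10.53 and 10.51 in OB-control livers and 10.01, 10.33 and 10.31 in N-control livers. The 3 OB-control arrays were nearly equal and above all others, and the OB-TUDCA arrays were below all others. The difference between OB-TUDCA and OB-control was -0.71 (SE 0.11, adjusted p = 0.0468 in limma), 1.64-fold lower. Against N-control the OB-TUDCA livers differed by -0.42 (adjusted p = 0.0916). The call against OB-control was close to the threshold and was lost without OB-TUDCA replicate 2 (adjusted p = 0.162) or 3 (0.116), without OB-control replicate 1 (0.160), 2 (0.0869) or 3 (0.0901), and without N-control replicate 1 (0.0551), 2 (0.0823) or 3 (0.0714). It was also lost with array weights (0.0625). Without OB-TUDCA replicate 2 or 3, OB-control replicate 1 or N-control replicate 2, 0 of all genes passed against OB-control.

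Agxt, the peroxisomal aminotransferase that turns glyoxylate into glycine, was dominated by a single control array. It had 7.66, 7.29 and 7.18 in OB-TUDCA livers, 7.86, 9.24 and 7.06 in OB-control livers and 8.01, 8.14 and 8.22 in N-control livers. OB-control replicate 2 was far above and OB-control replicate 3 below every other array, while the N-control arrays were close together and above the OB-TUDCA arrays. The difference between OB-TUDCA and OB-control was -0.67 (SE 0.43, adjusted p = 0.593). It was -0.079 without OB-control replicate 2 and -1.17 without OB-control replicate 3. Glyctk, the glycerate kinase, averaged 8.53 ± 0.04 in OB-TUDCA, 8.70 ± 0.20 in OB-control and 8.28 ± 0.09 in N-control livers. Its arrays in both ob/ob groups were above those of N-control, with differences of 0.24 (adjusted p = 0.245) for OB-TUDCA and 0.41 (adjusted p = 0.126) for OB-control.

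Creatine synthesis uses glycine and a methyl group from S-adenosylmethionine. Gatm, which makes guanidinoacetate from arginine and glycine, was lowest in OB-TUDCA and highest in N-control livers. Its signal was 5.71, 5.05 and 5.26 in OB-TUDCA livers, 5.91, 5.64 and 6.21 in OB-control livers and 6.43, 7.00 and 6.65 in N-control livers. The N-control arrays were above all 6 ob/ob arrays, and the 2 ob/ob groups overlapped. Gatm fell in OB-TUDCA against N-control livers, with a log2 difference of -1.35 (SE 0.21, adjusted p = 0.0112 in limma), 2.55-fold lower. OB-control differed from N-control by -0.77 (SE 0.21, adjusted p = 0.154) and OB-TUDCA from OB-control by -0.58 (SE 0.21, adjusted p = 0.294). Gatm is abundant in pancreas and kidney, and its highest signal was on N-control replicate 2, the array with acinar transcripts. Without that array the difference of OB-TUDCA from N-control was -1.20 (SE 0.22, adjusted p = 0.0450). Kidney tubule markers stood at 3.79 to 3.97 in OB-TUDCA, 3.78 to 3.82 in OB-control and 3.75 to 3.80 in N-control arrays. Without OB-TUDCA replicate 2 the adjusted p of the difference from N-control was 0.0553.

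Gamt, which methylates guanidinoacetate to creatine, had 8.92, 8.72 and 7.89 in OB-TUDCA livers, 9.41, 9.08 and 9.39 in OB-control livers and 9.29, 9.10 and 8.93 in N-control livers. The OB-TUDCA arrays were below all others, with replicate 3 far below. The difference between OB-TUDCA and OB-control was -0.78 (SE 0.24, adjusted p = 0.206), and -0.48 without OB-TUDCA replicate 3. Glyat, which joins glycine to acyl groups such as benzoate, averaged 8.53 ± 0.05 in OB-TUDCA, 8.78 ± 0.18 in OB-control and 8.95 ± 0.12 in N-control livers. Its OB-TUDCA arrays lay below those of both other groups, and the difference from N-control was -0.42 (SE 0.10, adjusted p = 0.0674).

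In choline oxidation the OB-TUDCA mean was below the OB-control mean for 4 of 6 genes and 0 passed the threshold with limma. Those 4 had an unadjusted p under 0.05, against 5.72% of all genes as lower. The 4 genes were Bhmt, Bhmt2, Dmgdh and Sardh. Bhmt2, a relative of betaine-homocysteine methyltransferase that prefers S-methylmethionine as donor, had 10.26, 10.14 and 10.38 in OB-TUDCA livers, 10.73, 10.76 and 10.88 in OB-control livers and 10.38, 10.41 and 10.61 in N-control livers. OB-control arrays were above all others. OB-TUDCA differed from OB-control by -0.53 (SE 0.10, adjusted p = 0.0617) and OB-control from N-control by 0.33 (SE 0.10, adjusted p = 0.185). Its neighbour Dmgdh, the dimethylglycine dehydrogenase that starts from the other side of the stretch of sequence printed above, averaged 10.97 ± 0.06 in OB-TUDCA, 11.20 ± 0.08 in OB-control and 10.97 ± 0.05 in N-control livers. OB-TUDCA and OB-control livers differed in Dmgdh by -0.23 (SE 0.07, adjusted p = 0.245), and OB-control and N-control by 0.22 (adjusted p = 0.250).

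Sardh, which oxidizes sarcosine to glycine, had 11.08, 10.46 and 10.59 in OB-TUDCA livers, 11.39, 11.53 and 11.05 in OB-control livers and 10.95, 11.08 and 11.17 in N-control livers. OB-TUDCA replicate 1 overlapped with the controls, and replicates 2 and 3 lay below them. The difference between OB-TUDCA and OB-control was -0.61 (SE 0.17, adjusted p = 0.175). Bhmt, the betaine-homocysteine methyltransferase, was read by 3 probe sets, which differed between OB-TUDCA and OB-control livers by -0.40 (SE 0.19), -0.32 (SE 0.11) and -0.35 (SE 0.11). Their mean was 11.28 ± 0.10 in OB-TUDCA, 11.63 ± 0.20 in OB-control and 11.58 ± 0.13 in N-control livers. None of the probe sets stood at that level. The first averaged 8.33 in OB-TUDCA, 8.73 in OB-control and 8.55 in N-control livers. The second averaged 12.75, 13.07 and 13.10 in these groups, and the third 12.75, 13.10 and 13.09. For the other 2 genes, Chdh and Pemt, the OB-TUDCA mean was the higher one. Chdh, the choline dehydrogenase, averaged 8.74 ± 0.19 in OB-TUDCA, 8.63 ± 0.05 in OB-control and 8.44 ± 0.05 in N-control livers, and the arrays of each ob/ob group were above those of N-control. Pemt, which makes phosphatidylcholine by methylation, differed between OB-TUDCA and OB-control livers by 0.090 (95% interval -0.14 to 0.32). Aldh7a1, which oxidizes betaine aldehyde to betaine and was named after its values were seen, differed by -0.40 (SE 0.11, adjusted p = 0.170 in limma), with the OB-TUDCA arrays below those of OB-control.

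The methionine cycle had 3 measured genes, and 0 passed the threshold with limma in any comparison. None had an unadjusted p under 0.05. Gnmt, which disposes of methyl groups by turning glycine into sarcosine, had 11.68, 11.21 and 10.53 in OB-TUDCA livers, 11.73, 11.86 and 11.46 in OB-control livers and 11.57, 11.70 and 11.43 in N-control livers. The OB-TUDCA arrays spanned a range of 1.15, with replicate 1 among the controls. The difference between OB-TUDCA and OB-control was -0.55 (SE 0.24, adjusted p = 0.420), and -0.24 without OB-TUDCA replicate 3. Mtr, the folate-dependent methionine synthase, had 5.65, 5.77 and 5.82 in OB-TUDCA livers, 5.85, 5.50 and 5.93 in OB-control livers and 5.88, 5.88 and 6.01 in N-control livers. Its OB-TUDCA arrays were all below those of N-control, by a mean of -0.17 (SE 0.12, adjusted p = 0.473). Mat1a, the S-adenosylmethionine synthetase of adult liver, differed between OB-TUDCA and OB-control livers by -0.0099, with a 95% interval of -0.22 to 0.20.

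Transsulfuration turned on a few arrays. Cth, the cystathionine gamma-lyase that releases cysteine, had 11.52, 10.68 and 10.91 in OB-TUDCA livers, 12.13, 12.60 and 11.27 in OB-control livers and 11.99, 12.20 and 11.92 in N-control livers. OB-control replicate 3 lay among the OB-TUDCA arrays, and the OB-TUDCA arrays were all below those of N-control. OB-TUDCA differed from OB-control by -0.96 (SE 0.31, adjusted p = 0.248), and from N-control by -1.003 (SE 0.31, adjusted p = 0.130). The difference from OB-control was -0.66 without OB-control replicate 2 and -1.33 without OB-control replicate 3. Cbs, the cystathionine beta-synthase of the step before, had 10.28, 10.05 and 9.94 in OB-TUDCA livers, 10.39, 11.18 and 9.85 in OB-control livers and 10.28, 10.42 and 10.52 in N-control livers. OB-control replicate 2 again gave the highest and replicate 3 the lowest signal of all arrays. OB-TUDCA differed from OB-control in Cbs by -0.38 (SE 0.27, adjusted p = 0.635), by -0.028 without OB-control replicate 2 and by -0.70 without OB-control replicate 3.

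**Figure D3:**
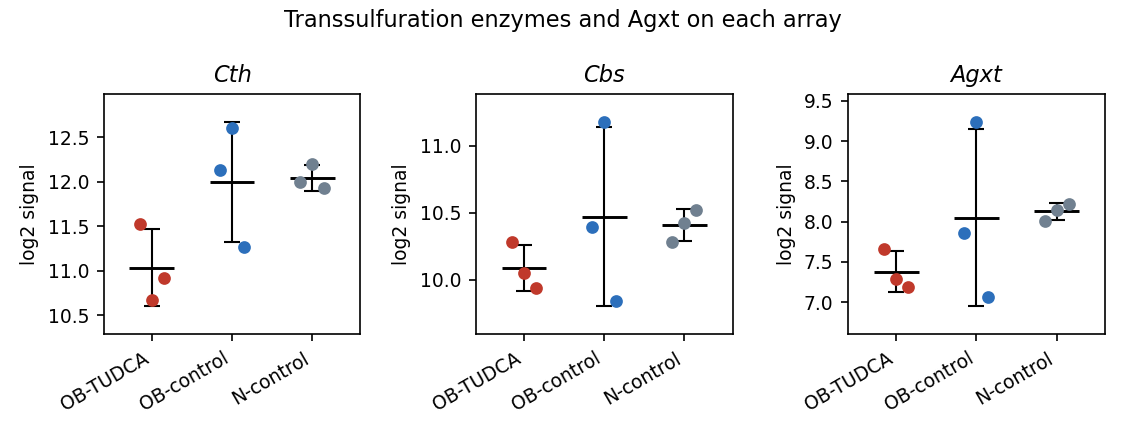
Log2 signal (y axis) of Cth, Cbs and Agxt on each array (points), with the group mean (bar) and SD (whiskers), n = 3 a group. OB-control arrays span 1.33 for Cth, 1.34 for Cbs and 2.18 for Agxt, with replicate 2 highest and replicate 3 lowest in each, while N-control arrays lie close together.

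Among the 28 genes and the 3 comparisons, the largest difference was that of a folate enzyme. Mthfd1l, the mitochondrial synthetase that releases formate for use in the cytosol, had 6.61, 7.03 and 7.22 in OB-TUDCA livers, 6.01, 6.67 and 6.60 in OB-control livers and 5.11, 5.31 and 5.15 in N-control livers. All 6 ob/ob arrays were above the N-control arrays, and the OB-TUDCA and OB-control arrays overlapped. Mthfd1l rose in OB-control against N-control livers by 1.23 (SE 0.19, adjusted p = 0.0231 in limma), 2.35-fold. OB-TUDCA against N-control gave 1.76 (SE 0.19, adjusted p = 0.00318 in limma), 3.40-fold. OB-TUDCA differed from OB-control by 0.53 (SE 0.19, adjusted p = 0.308), the only one of the 28 genes with a higher mean at an unadjusted p under 0.05. The rise in OB-control was lost without OB-TUDCA replicate 2 (adjusted p = 0.0527), OB-control replicate 3 (0.0836), or N-control replicate 1 (0.108), 2 (0.0759) or 3 (0.0740), while the rise in OB-TUDCA against N-control kept its call without any single array.

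Aldh1l1, the cytosolic enzyme that oxidizes formyl-folate to carbon dioxide, had 11.31, 10.94 and 10.84 in OB-TUDCA livers, 11.78, 11.71 and 11.52 in OB-control livers and 11.75, 11.63 and 11.48 in N-control livers. The OB-TUDCA arrays were below all 6 others. Aldh1l1 fell in OB-TUDCA against N-control livers, with a log2 difference of -0.59 (SE 0.13, adjusted p = 0.0457 in limma), 1.51-fold lower. Against OB-control the difference was -0.64 (SE 0.13, adjusted p = 0.0817). The call against N-control was lost without OB-TUDCA replicate 2 (adjusted p = 0.155) or 3 (0.123), without OB-control replicate 1 (0.0725), 2 (0.0642) or 3 (0.0549), and without N-control replicate 1 (0.174), 2 (0.120) or 3 (0.0612). It was also lost with a further quantile normalization (0.0558). Against OB-control it passed without OB-TUDCA replicate 1 (0.0325).

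Mthfd1, the cytosolic enzyme that interconverts formate, methenyl and methylene forms of folate, had 9.53, 8.96 and 9.20 in OB-TUDCA livers, 9.94, 10.10 and 9.58 in OB-control livers and 10.10, 9.94 and 9.77 in N-control livers. Its OB-TUDCA arrays were again below all others, though replicate 1 lay close to OB-control replicate 3. OB-TUDCA differed from OB-control by -0.64 (SE 0.17, adjusted p = 0.154) and from N-control by -0.71 (SE 0.17, adjusted p = 0.0632). The mitochondrial enzymes Mthfd2, a dehydrogenase and cyclohydrolase, and Aldh1l2, the counterpart of Aldh1l1, had low signals that overlapped between groups. Mthfd2 averaged 4.74 ± 0.26 in OB-TUDCA, 4.71 ± 0.12 in OB-control and 4.69 ± 0.09 in N-control livers. Aldh1l2 averaged 3.71 ± 0.17 in OB-TUDCA, 3.48 ± 0.08 in OB-control and 3.56 ± 0.33 in N-control livers.

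**Figure D4:**
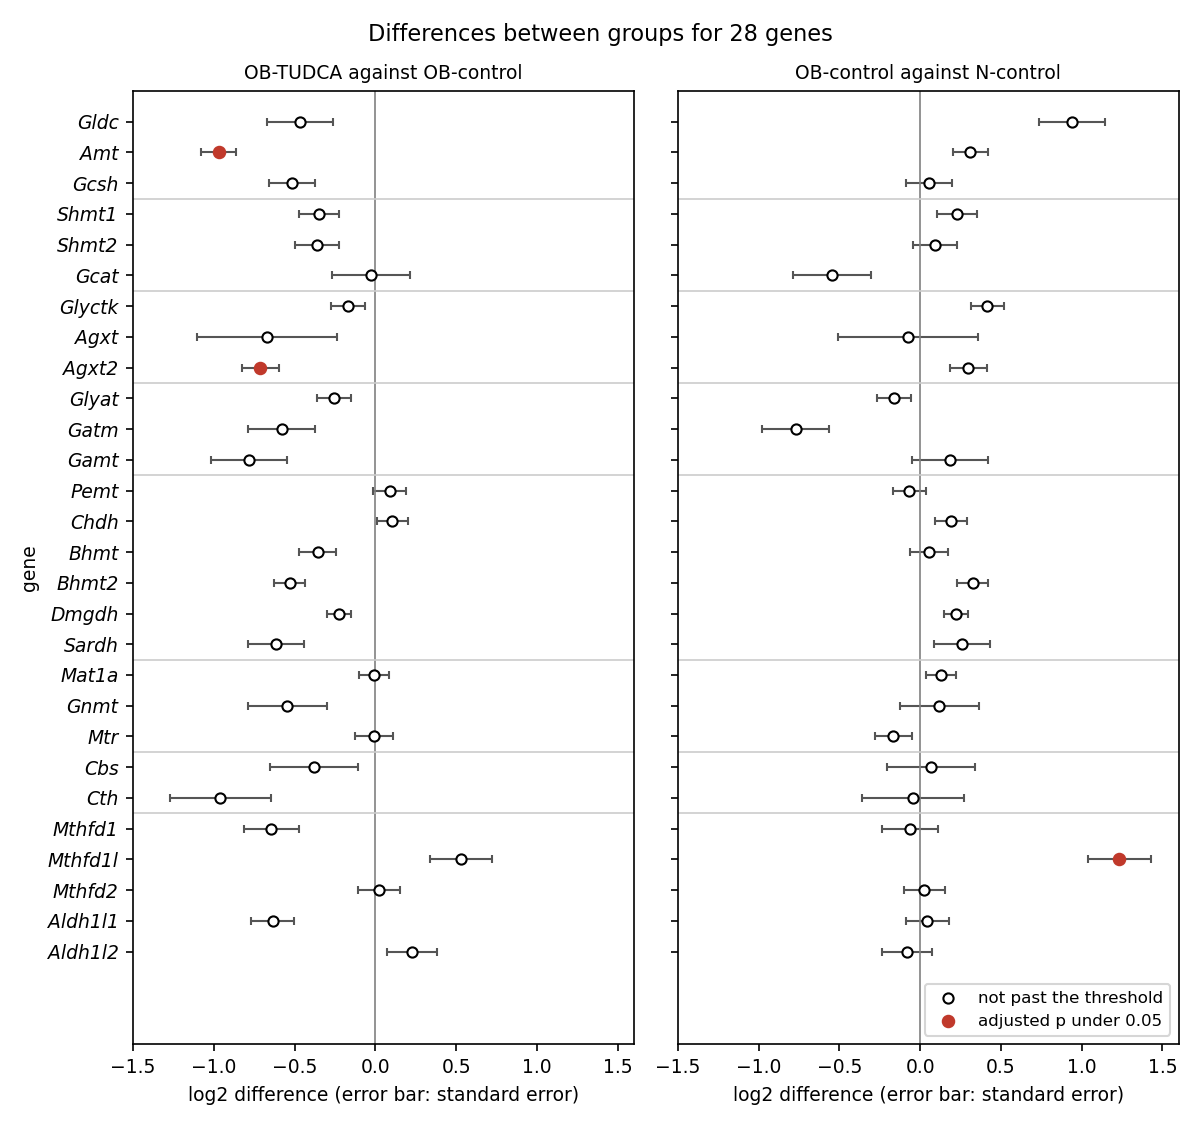
Difference in log2 signal of each of the 28 genes (points) with its standard error from limma (bars), for OB-TUDCA against OB-control (left) and OB-control against N-control (right), with filled points past the threshold of 0.05. In the left panel 23 points lie below 0 with Amt and Agxt2 filled, and in the right panel Mthfd1l at 1.23 lies farthest to the right.

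The obese controls were set against normal littermates to describe the untreated ob/ob liver. The mean was higher in OB-control than in N-control livers for 19 of 28 genes, while it was higher for 56.9% of all genes, and the median difference was 0.078 against 0.022 over all genes. One gene, Mthfd1l, rose and 0 fell past the threshold with limma, against 0.948% of all genes past it, 0.456% as higher and 0.492% as lower. At an unadjusted p under 0.05, 7 genes were higher and 2 lower, against 6.55% and 5.59% of all genes. The OB-control arrays were wholly above those of N-control for 8 genes (8.49% of all genes) and wholly below for 1, Gatm (6.77%). The genes wholly above were Gldc, Amt, Glyctk, Agxt2, Chdh, Bhmt2, Dmgdh and Mthfd1l.

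Treated obese livers were also set against normal livers. The OB-TUDCA mean was below the N-control mean for 20 of 28 genes, against 40.3% of all genes, and the median difference was -0.31 against 0.037 over all genes. Past the threshold, Mthfd1l rose and Amt, Gatm and Aldh1l1 fell, which is 4 of 28 genes against 3.24% of all genes, 1.35% as higher and 1.89% as lower. At an unadjusted p under 0.05, 4 genes were higher and 11 lower, against 10.4% and 8.15% of all genes. The arrays were wholly above for 3 genes (11.8% of all genes) and wholly below for 12 (8.95%). The 3 comparisons share arrays, since each group stands in 2 of them, and a high OB-control value raises its difference from N-control while it lowers that of OB-TUDCA from OB-control. For Agxt2 the differences side by side were -0.71 for OB-TUDCA against OB-control, 0.30 for OB-control against N-control and -0.42 for OB-TUDCA against N-control. For Amt they were -0.97, 0.31 and -0.66, for Gldc -0.47, 0.94 and 0.47, and for Mthfd1l 0.53, 1.23 and 1.76.

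The genes around the pathway were taken from 7 further lists. Of all genes, 0.301% passed the threshold in OB-TUDCA against OB-control, 0.948% in OB-control against N-control and 3.24% in OB-TUDCA against N-control. Of 3 genes of serine synthesis, 0 passed with limma. Psat1, the phosphoserine aminotransferase, had 3.94, 4.40 and 5.17 in OB-TUDCA livers, 3.81, 3.69 and 3.87 in OB-control livers and 3.94, 3.85 and 3.58 in N-control livers. The OB-TUDCA arrays were above those of OB-control, by a mean of 0.71 (SE 0.26, adjusted p = 0.297). Phgdh, the phosphoglycerate dehydrogenase that opens serine synthesis, differed by 0.37 (SE 0.38, adjusted p = 0.760) with overlapping arrays. Of 13 other folate enzymes and carriers, 0 passed with limma in any comparison. Ftcd, which feeds histidine carbon into folate, differed between OB-TUDCA and OB-control livers by -0.58 (SE 0.18, adjusted p = 0.222) with arrays apart, and Folr2, a folate receptor of macrophages, differed between OB-control and N-control livers by -0.42 (SE 0.22, adjusted p = 0.508).

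Of 11 other glycine and glyoxylate genes, only Hao1 passed the threshold. Hao1, the peroxisomal oxidase that makes glyoxylate from glycolate, had 9.55, 9.47 and 9.42 in OB-TUDCA livers, 9.03, 9.51 and 9.39 in OB-control livers and 10.01, 10.15 and 10.30 in N-control livers. Both ob/ob groups were below N-control, by -0.67 for OB-TUDCA (SE 0.13, adjusted p = 0.0240 in limma) and -0.84 for OB-control (SE 0.13, adjusted p = 0.0188 in limma). Each Hao1 call was lost without some single arrays, up to an adjusted p of 0.0937 without OB-TUDCA replicate 2 for OB-TUDCA and of 0.0831 without N-control replicate 2 for OB-control. The other arrays whose loss ended the OB-TUDCA call were OB-TUDCA replicate 3 and N-control replicates 1, 2 and 3 (0.0750, 0.0549, 0.0783 and 0.0702), and for OB-control they were OB-control replicate 3 and N-control replicates 1 and 3 (0.0557, 0.0515 and 0.0593).

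In sulfur amino acid disposal, 1 of 10 genes passed. Csad, the cysteine sulfinate decarboxylase on the way to taurine, had 9.14, 9.27 and 9.45 in OB-TUDCA livers, 7.82, 7.74 and 8.29 in OB-control livers and 9.14, 9.30 and 9.56 in N-control livers. OB-control arrays were all below those of the other groups, which overlapped. Csad rose in OB-TUDCA against OB-control livers by 1.33 (SE 0.16, adjusted p = 0.0249 in limma) and fell by 1.38 in OB-control against N-control livers (SE 0.16, adjusted p = 0.00596 in limma). Between OB-TUDCA and N-control livers the difference was -0.047 (SE 0.16). The first call was lost without OB-TUDCA replicate 2 (adjusted p = 0.104) or 3 (0.0812), OB-control replicate 1 (0.125) or N-control replicate 2 (0.0585). In each of these settings 0 of all genes passed in OB-TUDCA against OB-control.

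Among 9 methyltransferases that use S-adenosylmethionine, Tpmt fell in OB-TUDCA livers against both controls. Tpmt, the thiopurine methyltransferase, had 9.39, 9.16 and 9.06 in OB-TUDCA livers, 10.13, 9.90 and 10.10 in OB-control livers and 9.91, 9.90 and 9.84 in N-control livers. The OB-TUDCA arrays were below all others, by a mean of -0.84 against OB-control (SE 0.10, adjusted p = 0.0249 in limma) and -0.68 against N-control (SE 0.10, adjusted p = 0.0101 in limma). The call against OB-control was lost without OB-TUDCA replicate 2 (adjusted p = 0.104) or 3 (0.0779), OB-control replicate 1 (0.125) or 3 (0.0685), or N-control replicate 2 (0.0585), and that against N-control without OB-TUDCA replicate 2 (0.0519). Against OB-control 0 of all genes passed in the settings listed, apart from the loss of OB-control replicate 3.

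Of 13 other genes of the methionine cycle and salvage, Srm rose in OB-TUDCA against N-control livers. Srm, the spermidine synthase, had 8.53, 8.58 and 8.80 in OB-TUDCA livers, 8.22, 8.11 and 8.11 in OB-control livers and 7.95, 8.11 and 7.82 in N-control livers. The OB-TUDCA arrays were above all others, and the difference from N-control was 0.67 (SE 0.10, adjusted p = 0.0101 in limma). Of 9 genes of choline entry and phosphatidylcholine, Slc44a1 fell in OB-TUDCA against N-control livers. Slc44a1, a choline transporter, had 7.43, 7.57 and 7.31 in OB-TUDCA livers, 7.81, 7.66 and 7.90 in OB-control livers and 8.24, 7.87 and 8.09 in N-control livers. The OB-TUDCA arrays were below all others, and the difference from N-control was -0.63 (SE 0.11, adjusted p = 0.0213 in limma). Its probe sets disagreed, since the one with the highest signal gave -0.20 (adjusted p = 0.300). Without single arrays the Slc44a1 call was lost for OB-TUDCA replicate 2 (0.0528) and 3 (0.0700) and N-control replicate 1 (0.0876) and 3 (0.0586).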

How the data were processed

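The 9 arrays of liver RNA were Affymetrix Mouse Gene 1.0 ST. The authors turned the scans into log2 signals with RMA in Affymetrix Expression Console, whose version is not given in the sources used here, and the deposited log2 values were taken as they are. The platform annotation gives 1 gene symbol to 21789 of the 35556 probe sets, several to 1621 and none to 12146. The mean of the probe sets with that symbol alone stood for each of 19938 genes, 999 of which had more than 1. No filter on signal was applied. Arrays give no read depth, and their number limits the precision.

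The members and the lists were chosen with earlier results of these data known. The linear fit was made with limma 3.58.1 in R 4.3.3 (lmFit and eBayes without trend), with a mean for each of the 3 groups, which left 6 residual degrees of freedom beside 3.33 of the prior. P-values are two-sided and were adjusted over all genes by Benjamini-Hochberg, and 0.05 was the threshold. The methods name fold limits and SAM for the choice of genes, and limma was used in their place because it gives a standard error for each gene. Intervals are 95% intervals of that fit. No test was run on the list. Simulated data with known differences served to check the fit. Signals on every array are given for genes past the threshold and for the 2 genes of each role with the largest difference in any comparison. From the further pathway lists, genes past the threshold are named, and otherwise the 2 with the largest difference.

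The alternatives were a filter that drops genes of low mean signal (the third of them with the lowest), a further quantile normalization, centring of the arrays on their medians, eBayes with trend and robust settings, array weights, a fit of the 2 compared groups only, the brightest probe set in place of the mean, the replicate number as a block, a t-test with equal variances for each gene (which the methods name for other data than the arrays), and the loss of each array in turn. The software further comprised data.table (version 1.17.8), Python (3.11.15) and matplotlib (3.10.9). RefSeq annotation of GRCm38.p6 gave promoters and neighbouring genes.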

Additional observations from a re-analysis of the deposited data

How the results depend on the processing

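The 18 alternatives changed the number of genes past the threshold more than their direction. For OB-TUDCA against OB-control, where 2 of the 28 genes passed, the count was 3 with the filter on low signals and 3 with quantile normalization (Bhmt2 joined), 1 with array weights, 0 with only the 2 groups compared, 0 with the t-test and 0 to 3 when each array was left out in turn. With the filter 27 of the 28 were tested, and 50 of all 13292 genes left passed as higher and 81 as lower. All genes gave 45 and 52 with quantile normalization, 24 and 41 with array weights, and 0 and 0 with the 2 groups or the t-test. Without OB-TUDCA replicate 1, where 3 of the 28 passed, they gave 66 and 69. At an unadjusted p under 0.05, limma on the 2 groups gave 0 higher and 15 lower of the 28 genes, and the t-test 0 and 7. For OB-control against N-control, where 1 of the 28 passed, the count was 2 with quantile normalization, 2 with array weights, 0 with only the 2 groups compared (8 higher and 2 lower unadjusted), 0 with the t-test (7 and 1 unadjusted) and 0 to 1 with arrays left out. All genes gave 111 higher and 105 lower with quantile normalization, 170 and 188 with array weights, 25 and 40 with the 2 groups, and 0 and 1 with the t-test. For OB-TUDCA against N-control, where 4 of the 28 passed, the count was 5 with the filter and 5 with array weights (Mthfd1 joined), 3 with quantile normalization, 2 with only the 2 groups compared, 0 with the t-test (2 higher and 9 lower unadjusted) and 1 to 6 with arrays left out. All genes gave 337 higher and 446 lower with the filter, 368 and 480 with array weights, and 366 and 367 with quantile normalization. They gave 127 and 218 with the 2 groups, and 0 and 0 with the t-test. Over all genes, 60, 189 and 646 genes passed in these comparisons, and over the alternatives the counts ranged from 0 to 135, from 1 to 358 and from 0 to 871. The cause of these changes was not tested.

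The adjusted p of Amt against OB-control ranged from 0.0156 to 0.274 over the alternatives, that of Agxt2 from 0.0270 to 0.448 and that of Mthfd1l in OB-control against N-control from 0.00804 to 0.360. Against N-control, OB-TUDCA livers gave 0.0101 to 0.251 for Amt, 0.00677 to 0.240 for Gatm, 0.00153 to 0.154 for Mthfd1l and 0.0135 to 0.325 for Aldh1l1. The highest value was always that of the t-test. The median difference of the 28 genes ranged with arrays left out from -0.44 to -0.30 for OB-TUDCA against OB-control, from 0.057 to 0.20 for OB-control against N-control (0.20 without OB-control replicate 3) and from -0.37 to -0.25 for OB-TUDCA against N-control.

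None of the 15 called differences changed sign. Of the 92 differences followed, 18 did, and none of these was called in either direction. For OB-TUDCA against OB-control, Mat1a became 0.065 with quantile normalization, 0.00933 with array medians subtracted and 0.0116 with array weights, Mtr became 0.00983 with array medians subtracted, and Gcat became 0.00430 with array weights. With arrays left out, Gcat ranged from -0.23 to 0.21, Chdh from -0.00344 to 0.16, Mat1a from -0.084 to 0.069, Mtr from -0.14 to 0.076 and Mthfd2 from -0.12 to 0.13. For OB-control against N-control, Cth became 0.00168 and Mthfd1 0.000448 with quantile normalization. With arrays left out, Gcsh ranged from -0.030 to 0.12, Agxt from -0.67 to 0.42, Pemt from -0.15 to 0.00750, Bhmt from -0.00524 to 0.17, Cbs from -0.29 to 0.38, Cth from -0.34 to 0.32, Mthfd1 from -0.17 to 0.085, Mthfd2 from -0.040 to 0.081, Aldh1l1 from -0.025 to 0.12 and Aldh1l2 from -0.23 to 0.096. For OB-TUDCA against N-control, Dmgdh became 0.046 with quantile normalization and Pemt -0.00167 with array weights, and with arrays left out Pemt ranged from -0.061 to 0.097, Dmgdh from -0.033 to 0.030 and Mthfd2 from -0.095 to 0.15.

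Arrays share only a replicate number across groups. Deviations of same-numbered arrays from their group means correlated at -0.075 to 0.21, above 0.1 in 4 of 9 pairs, and 6 of 9 arrays correlated best with their own number in both other groups. That is a hint of pairing from the data and not from the design, and since not every pair was above 0.1 the numbers were not taken to pair the arrays. With the number as a block, 3 genes passed in OB-TUDCA against OB-control, Amt, Bhmt2 (adjusted p = 0.0440 in limma) and Aldh1l1 (0.0352), while Agxt2 did not (0.0686). Of all 19938 genes, 29 passed there as higher and 31 as lower. In OB-control against N-control 2 passed, Gcat (0.0281) and Mthfd1l, with 97 of all genes higher and 92 lower. In OB-TUDCA against N-control 6 passed, with Gcat (0.0117) and Mthfd1 (0.0404) beside the 4 reported. There 430 of all genes passed as higher and 441 as lower, in total the most of any alternative in that comparison. Gcat had the same value on 5 of the 9 arrays and was lowest in replicate 3 of each group. Without the block its adjusted p in limma was 0.409 and 0.247. With 3 arrays a group, small differences could not be told from the spread between arrays.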

Other observations

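Ahcy, the enzyme that splits S-adenosylhomocysteine after each methyl transfer, was covered by 3 probe sets that the annotation shares with Gm4737, so their signal cannot be given to either gene alone. The first of these had 12.71, 12.62 and 12.42 in OB-TUDCA livers, 12.49, 12.73 and 12.39 in OB-control livers and 12.48, 12.54 and 12.54 in N-control livers. The groups overlapped. The 3 probe sets differed between OB-TUDCA and OB-control livers by 0.04 (SE 0.11), 0.0060 (SE 0.10) and -0.0094 (SE 0.10).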
